A study of Mus musculus with 6 samples.

Results

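The 9 genes described here encode the kinase mTOR, its upstream switch, its best known substrates and the inhibitors that act on it under stress. They were picked by symbol (Tsc1, Tsc2, Rheb, Mtor, Deptor, Ddit4, Sesn2, Rps6kb1 and Eif4ebp1), and 9 of 9 were found among the 35485 genes of each sample. Whole retinas of wild type C57BL/6 male mice, 12 weeks old, had been sequenced 2 days after optic nerve crush (ONC) or a sham operation. In the ONC group fine forceps were closed on the nerve 2 mm behind the globe for 10 seconds, and in the sham group the nerve was laid open only. Each group had 3 samples, and each sample was RNA from 6 retinas of 6 mice mixed before sequencing, so the spread between samples is a spread between pools.

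mTOR complex 1 promotes protein synthesis and growth when nutrients and growth factors are at hand. The products of Tsc1 and Tsc2 form a complex that keeps the small GTPase Rheb inactive, and active Rheb turns the kinase on. Under stress, REDD1 (from Ddit4) acts through the TSC complex and sestrin 2 (from Sesn2) acts on the amino acid sensing branch, and both lower the activity of the kinase. In retinal ganglion cells (RGCs), whose axons run in the optic nerve, mTOR activity is known for its role in axon regrowth. The activity of the kinase is set largely by phosphorylation and binding, which RNA-seq does not measure.

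Sesn2 alone of the 9 genes passed the test. It rose 1.53-fold after ONC, and Ddit4, the other stress inhibitor, stood at 1.06-fold with an interval that spans 1. The promoter sequences of these 2 genes are shown here because they are the stress-regulated inhibitors and only Sesn2 passed. Each line holds the 250 bases before the annotated start (RefSeq, GRCm38.p6), 5′ to 3′ in the direction of the gene. Capitals mark ATTGG, which is the CCAAT box read on the other strand. The Sesn2 stretch is chr4:132510457-132510706 and the Ddit4 stretch is chr10:59951771-59952020, both on the minus strand.
Sesn2: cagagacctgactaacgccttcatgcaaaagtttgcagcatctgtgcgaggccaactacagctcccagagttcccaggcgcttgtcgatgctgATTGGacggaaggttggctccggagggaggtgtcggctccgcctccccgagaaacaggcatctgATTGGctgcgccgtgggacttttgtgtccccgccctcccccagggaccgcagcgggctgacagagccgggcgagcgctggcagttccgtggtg
Ddit4: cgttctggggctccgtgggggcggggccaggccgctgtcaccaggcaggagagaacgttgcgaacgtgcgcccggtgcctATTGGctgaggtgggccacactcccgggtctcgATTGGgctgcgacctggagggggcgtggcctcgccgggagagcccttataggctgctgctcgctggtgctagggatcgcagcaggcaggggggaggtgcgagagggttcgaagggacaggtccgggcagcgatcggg

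Of the 9 genes, 7 had a promoter in the RefSeq table, taken as 250 bases before and 50 after the start. TGATGNAA, the composite element bound by C/EBP and ATF factors in the amino acid response, was searched on both strands and found in 0 of 7, against 3.97% of all 32851 promoters. TGACGTCA, the cAMP response element, was found in 0 of 7 as well, against 1.79% of all. With shares this low, 0 of 7 is the likely count for any 7 promoters, so no conclusion can be drawn from it. Bases farther from the start were not searched. CCAAT was added to the search after the sequences had been seen. It was present in 3 of the 7 promoters, those of Sesn2, Mtor and Ddit4, and in 37.4% of all promoters. In Sesn2 the boxes began 157 and 93 bases before the start, and in Ddit4 170 and 137 bases before it. Sesn2 and Ddit4 each held 2 boxes and Mtor 4, and 11.7% of all promoters held at least 2. For promoters with any box, the count of 3 in 7 is near the share of all promoters. For at least 2 boxes the count was also 3 in 7, above the 11.7% of all. The motif was chosen after the sequences had been seen, so no conclusion is drawn from either count. A link between the boxes and the change after ONC was not tested.

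Exon reads per sample numbered 17343945 to 18349331 in sham and 20019818 to 20358008 in ONC, with an intact read pair counted as 1. Exons held 70.9% to 76.6% of the reads on genes in sham and 78.5% to 80.4% in ONC. RPKM, a level per length, counts exon reads per kilobase but is scaled by all gene reads, introns included, and it placed the median gene 0.13 higher in ONC on the log2 scale. Fold changes below come from exon reads scaled by TMM, under which that median was 0.01. The edgeR test covered 13670 genes, those whose mean RPKM exceeded 0.3 in either group. A gene passed at an adjusted p under 0.1, and was a DEG if its fold change was also above 1.5. By this rule 6.09% of all tested genes passed, 325 higher in ONC (2.38%) and 508 lower (3.72%), and 1.66% were DEGs. With the scaling of RPKM, 1507 were higher and 223 lower. Without ONC replicate 1 the number that passed was 2049, and without sham replicates 2 or 3 or ONC replicates 2 or 3 it was 373 to 453. An unadjusted p under 0.05 in edgeR was reached by 2286 of the 13670 genes. By DESeq2, 932 of all tested genes passed, 354 higher in ONC and 578 lower. By limma on log2 RPKM with a pseudocount of 0.1, 1121 passed, 978 higher and 143 lower. The p-values measure the spread between pools only.

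Whole retina holds many cell types, and their markers were summed as RPKM, which carries the shift of 0.13 given above. Of 9 RGC markers 8 fell and 1, Slc17a6, rose, and their summed RPKM was 432 to 451 in sham and 320 to 337 in ONC. Of 6 microglia and macrophage markers 2 rose, Itgam and C1qa, and their sum was 8.34 to 10.2 in sham and 13.3 to 15.4 in ONC. Of 9 rod and cone markers 2 rose, Pde6b and Sag, with sums of 18926 to 19748 in sham and 20789 to 22129 in ONC. Of 3 blood markers 2 fell, with sums of 152 to 330.02 in sham and 97.2 to 138 in ONC, and of 3 lens markers 1 rose, Cryaa, with sums of 5.92 to 39.0 in sham and 39.0 to 50.9 in ONC. No marker passed in edgeR among 5 of bipolar cells (1 at an unadjusted p under 0.05, 0 by DESeq2, 0 by limma) or 6 of Muller glia and astrocytes (3 unadjusted, 1 by DESeq2, 2 by limma). None passed among 4 of vascular endothelium and 3 of pigment epithelium, where the unadjusted, DESeq2 and limma counts were 0 too. No marker was at 0 throughout. The part of these shifts in the values of the 9 genes was not tested, and in bulk RNA fewer cells of a type and less RNA per cell cannot be told apart.

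Sesn2 encodes sestrin 2, which binds the GATOR2 complex when leucine is scarce and so holds mTOR complex 1 inactive. The files place it at chr4:132492804-132510456 (GRCm38), with 10 exons and 2658 exonic bases. It had 255, 297 and 246 exon reads in the sham pools and 492, 443 and 483 in the ONC pools, given here and throughout in the order of replicates 1 to 3. In RPKM these were 4.17, 4.66 and 3.78 in sham and 7.31, 6.70 and 7.005 in ONC. Every ONC pool lay well above every sham pool, and the pools of a group lay close together, at 4.21 ± 0.442 RPKM in sham and 7.01 ± 0.309 RPKM in ONC (SD, n = 3). On the log2 scale the rise was 0.62 (SE 0.12, 95% interval 0.37 to 0.87, edgeR adjusted p = 0.00417). Sesn2 was thus the only one of the 9 genes to pass, 11.1% of them against the 6.09% of all genes.

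Sesn2 passed in each of the 18 alternative settings tried, with log2 fold changes of 0.57 to 0.74. Its fold change lay close to the limit of 1.5, and it was no longer a DEG in 3 of the 18. These were the fit without ONC replicate 1 (log2 fold change 0.57), the fit on total gene reads (0.58) and the fit on reads across exon-exon junctions (0.57).

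Neither of the other sestrins rose past the test. Sesn1, a p53-responsive paralog, had 22.5, 23.1 and 22.3 RPKM in sham and 24.9, 26.0 and 25.6 RPKM in ONC, with a log2 fold change of 0.05 (SE 0.06, edgeR adjusted p = 0.753). Sesn3, a paralog under the control of FoxO factors, had 16.3, 18.2 and 16.2 RPKM in sham and 16.8, 12.0 and 13.6 RPKM in ONC. Sesn3 fell by 0.37 on the log2 scale (SE 0.11, edgeR adjusted p = 0.0716), with ONC replicate 1 inside the sham range. Its call was lost in 8 of 18 alternatives, among them the fits without sham replicate 2 or 3 or ONC replicate 2 or 3 (edgeR adjusted p = 0.217 to 0.3001).

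Per length, Sesn2 was the least abundant sestrin in both groups. It made up 9.71%, 10.2% and 8.95% of the summed sestrin RPKM in sham and 14.9%, 15.0% and 15.2% in ONC. The shares did not overlap, and the mean rose from 9.61% ± 0.614 to 15.0% ± 0.124 (SD, n = 3), a difference of 5.41 percentage points. The two-sided exact permutation test gave p = 0.1, the smallest that 3 against 3 can give, and 0.25 after adjustment over the 5 shares tested.

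**Figure D1:**
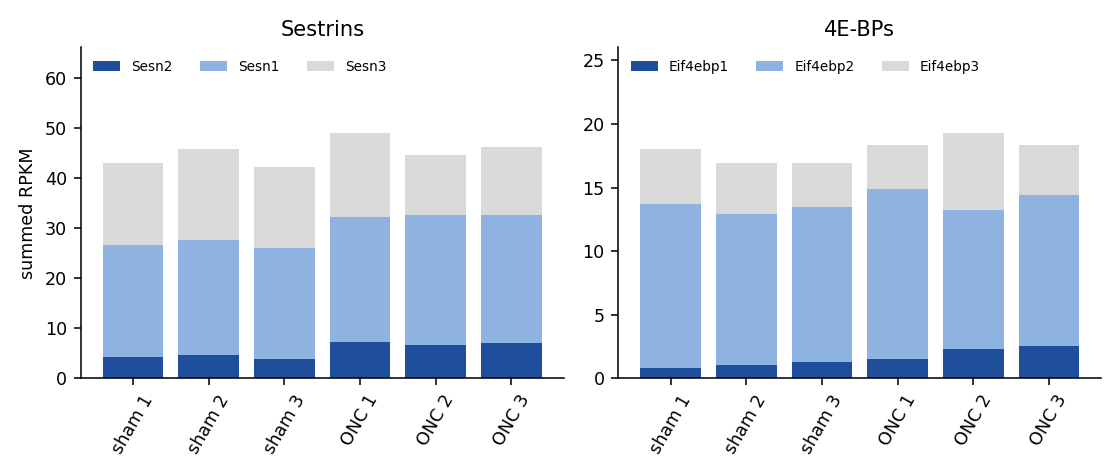
Summed RPKM of the 3 sestrins (left) and of the 3 4E-BPs (right) in each library, with each bar starting at 0 and each shade standing for a gene. The dark segment at the base, Sesn2 or Eif4ebp1, is taller in every ONC library than in every sham library, while the paralogs above it hold most of each bar.

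Ddit4 encodes REDD1, an inhibitor induced by hypoxia, glucocorticoids and DNA damage. It lies at chr10:59949675-59951770 with 3 exons. It had 2010, 1871 and 1784 exon reads in sham and 2245, 2321 and 2422 in ONC, and its RPKM was 51.9, 46.4 and 43.3 in sham and 52.6, 55.3 and 55.4 in ONC. The ONC values lay above the sham values in RPKM, by less than 1 RPKM between sham replicate 1 and ONC replicate 1, and the groups overlapped after TMM scaling. The log2 fold change was 0.09 (SE 0.06, 95% interval -0.05 to 0.22, edgeR adjusted p = 0.531), so that at this precision a rise as large as that of Sesn2 lay outside the interval. Ddit4 passed in 0 of 18 alternatives. Its paralog Ddit4l was low, at 1.21 ± 0.443 RPKM in sham and 1.14 ± 0.227 RPKM in ONC (SD, n = 3), and Ddit4 made up 97.5% of the pair in sham and 98.0% in ONC (exact permutation test, p = 0.4).

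**Figure D2:**
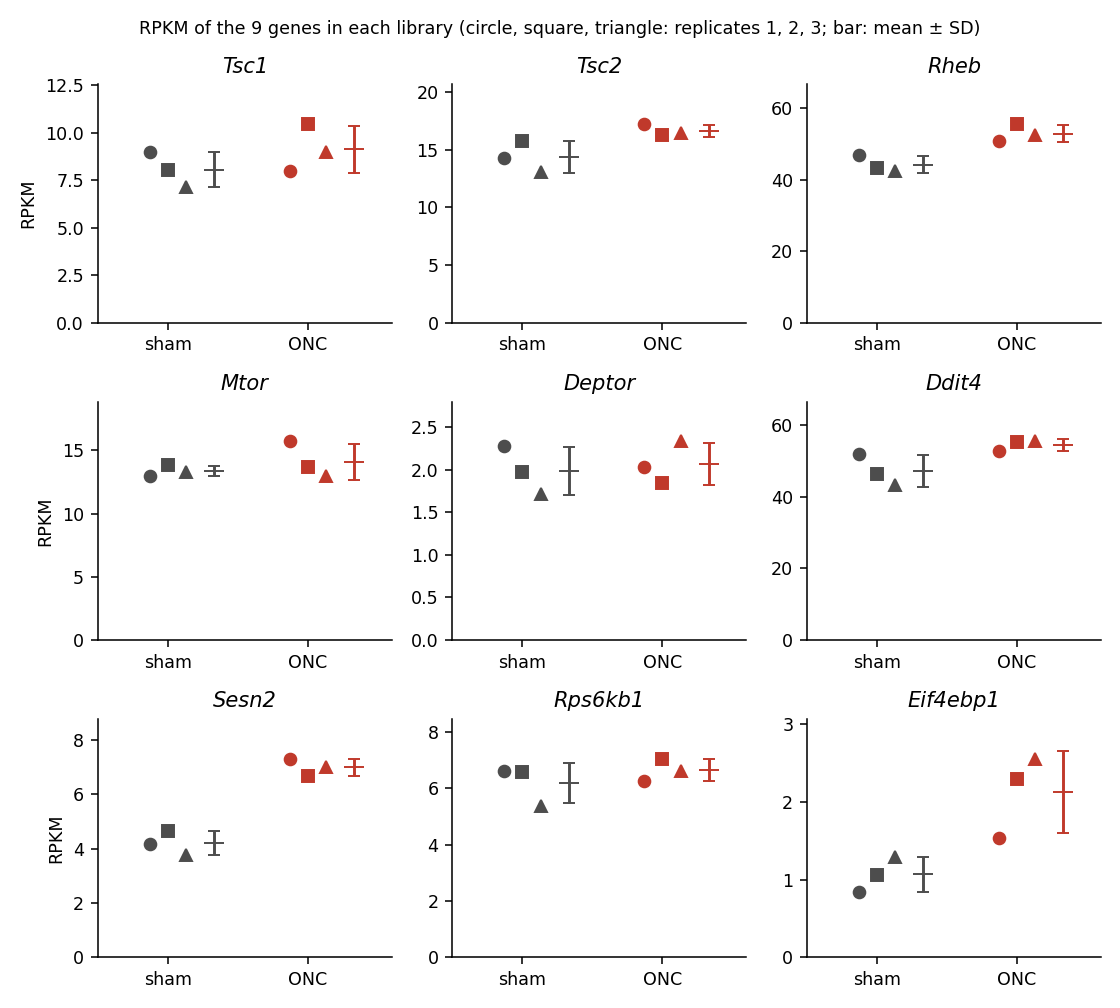
RPKM (vertical axes, from 0) of the 9 genes in the 3 sham and 3 ONC libraries, with points for replicates 1, 2 and 3 and a bar for the mean ± SD. Sesn2 is the gene whose groups lie farthest apart relative to their spread, Eif4ebp1 is separated with wide scatter in ONC, and Tsc1, Mtor, Deptor and Rps6kb1 overlap.

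Deptor encodes a protein that binds mTOR and inhibits both of its complexes. It lies at chr15:55112483-55254202, where it overlaps Gm9920, and the 2 cannot be told apart by strand here because the strand setting of the counting is not given in the sources used. It had 180, 163 and 144 exon reads in sham and 177, 158 and 208 in ONC, and 1.99 ± 0.283 RPKM in sham and 2.07 ± 0.245 RPKM in ONC (SD, n = 3). The groups overlapped, and the log2 fold change was -0.06 (95% interval -0.41 to 0.30, edgeR adjusted p = 0.901) under TMM and 0.06 under the scaling of RPKM. No direction can be given.

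The TSC complex is the brake that growth factor signals release. Tsc1 (chr2:28641243-28691167), which encodes the stabilizing subunit hamartin, had 9.002, 8.03 and 7.16 RPKM in sham and 7.998, 10.5 and 8.97 RPKM in ONC. The groups overlapped, with a log2 fold change of 0.06 (95% interval -0.11 to 0.23, edgeR adjusted p = 0.771). Tsc2 (chr17:24595937-24632629), which encodes tuberin with the domain that acts on Rheb, had 14.3, 15.8 and 13.0 RPKM in sham and 17.2, 16.2 and 16.4 RPKM in ONC. Its RPKM values did not overlap but its TMM-scaled counts did, and its log2 fold change was 0.09 (95% interval -0.05 to 0.23, edgeR adjusted p = 0.524). Tsc2 overlaps Pkd1, and 95.3% of its exon reads were uniquely mapped.

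Rheb, the GTPase that activates mTOR complex 1, was the gene next to Ddit4 in level. It lies at chr5:24802823-24842361 and had 1637, 1575 and 1583 exon reads in sham and 1952, 2102 and 2071 in ONC. Its RPKM was 46.8, 43.2 and 42.5 in sham and 50.7, 55.5 and 52.5 in ONC, so that the groups did not overlap, and they did not overlap after TMM scaling either. The log2 fold change was 0.14 (SE 0.07, 95% interval 0.00 to 0.27), and it did not pass (edgeR adjusted p = 0.296). It passed in 3 of 18 alternatives, all of which used the RPKM divisor. Rhebl1, a Rheb paralog, had 3.93 ± 0.258 RPKM in sham and 5.45 ± 0.489 RPKM in ONC (SD, n = 3), with a log2 fold change of 0.35 that did not pass (edgeR adjusted p = 0.332). Rheb made up 91.8% of the pair in sham and 90.7% in ONC (exact permutation test, p = 0.2).

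Mtor itself, the kinase, lies at chr4:148448582-148557685 with 58 exons and overlaps Angptl7. It had 2567, 2848 and 2789 exon reads in sham and 3414, 2919 and 2883 in ONC, and 13.0, 13.8 and 13.3 RPKM in sham and 15.7, 13.6 and 12.9 RPKM in ONC. ONC replicate 1 was the highest, and the other ONC pools lay inside or just under the sham range. The log2 fold change was -0.04 (SE 0.08, 95% interval -0.20 to 0.11, edgeR adjusted p = 0.818) under TMM and 0.08 under the scaling of RPKM.

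Rps6kb1 encodes S6K1, the kinase that phosphorylates ribosomal protein S6 downstream of mTOR complex 1. It lies at chr11:86499009-86544807 and had 6.62, 6.56 and 5.37 RPKM in sham and 6.26, 7.04 and 6.62 RPKM in ONC. The groups overlapped, and the log2 fold change of -0.02 (95% interval -0.17 to 0.14, edgeR adjusted p = 0.939) became 0.10 under the scaling of RPKM. Rps6kb2, which encodes S6K2, had 9.04 ± 0.443 RPKM in sham and 11.6 ± 2.70 RPKM in ONC (SD, n = 3), with a log2 fold change of 0.23 (edgeR adjusted p = 0.444). Its ONC pools were at 8.51, 12.8 and 13.5 RPKM, with only replicate 1 not above the sham pools. Rps6kb2 passed in 1 of 18 alternatives, the fit without ONC replicate 1 (log2 fold change 0.40, edgeR adjusted p = 0.0357). Rps6kb1 made up 40.6% of the pair in sham and 36.9% in ONC (exact permutation test, p = 0.3).

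Eif4ebp1 encodes 4E-BP1, which holds the cap-binding factor eIF4E until mTOR complex 1 phosphorylates it. It lies at chr8:27260327-27275656, with 3 exons and 981 exonic bases. It had 19, 25 and 31 exon reads in sham and 38, 56 and 65 in ONC, the lowest counts of the 9 genes. In RPKM these were 0.842, 1.06 and 1.29 in sham and 1.53, 2.29 and 2.55 in ONC. The groups did not overlap, but the ONC pools were widely spread, at 2.13 ± 0.532 RPKM against 1.07 ± 0.225 RPKM in sham (SD, n = 3). The log2 fold change of 0.86 (SE 0.38, 95% interval 0.06 to 1.65) was the largest of the 9 genes and did not pass (edgeR adjusted p = 0.254). It passed in 4 of 18 alternatives, which were limma with both pseudocounts, the fit without ONC replicate 1 (log2 fold change 1.03, edgeR adjusted p = 0.0986) and the junction reads described next.

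The reads of Eif4ebp1 that crossed an exon-exon junction, examined after the exon reads had been seen, differed more. There were 3, 4 and 6 in sham and 27, 23 and 24 in ONC, a sum of 13 against 74. The exon reads that crossed no junction were 16, 21 and 25 in sham and 11, 33 and 41 in ONC, and these overlapped. Junction reads thus made up 15.8%, 16.0% and 19.4% of the exon reads in sham and 71.1%, 41.1% and 36.9% in ONC, against 42.0% to 43.1% over all genes. For counting error alone, the Wilson 95% intervals ran from 5.52% to 37.6%, 6.40% to 34.7% and 9.19% to 36.3% in sham and from 55.2% to 83.0%, 29.2% to 54.1% and 26.2% to 49.1% in ONC. The interval of ONC replicate 1 lay above those of all sham pools, and the intervals of ONC replicates 2 and 3 overlapped them. The ONC shares of replicates 2 and 3 lay near or a little under the share of all genes, whereas all sham shares lay well under it. The share differs widely between genes, however. In sham it was 14.6% to 17.2% for Ddit4, which also has 3 exons, and 76.4% to 78.4% for Mtor, which has 58. The share of all genes is therefore no norm for Eif4ebp1.

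On junction reads alone, the log2 fold change of Eif4ebp1 was 2.27 (SE 0.65, 95% interval 0.93 to 3.61, edgeR adjusted p = 0.0701), and Eif4ebp1 and Sesn2 passed among the 9 genes, where 2.88% of all genes passed. Sesn2 had 132, 152 and 115 junction reads in sham and 252, 202 and 231 in ONC, a log2 fold change of 0.57 (edgeR adjusted p = 0.0701), and its junction share was alike in both groups, at 46.7% to 51.8% in sham and 45.6% to 51.2% in ONC. Ddit4 had a junction log2 fold change of 0.26 that did not pass (edgeR adjusted p = 0.388). Its junction share was low in both groups, at 14.6% to 17.2% in sham and 16.6% to 20.6% in ONC.

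**Figure D3:**
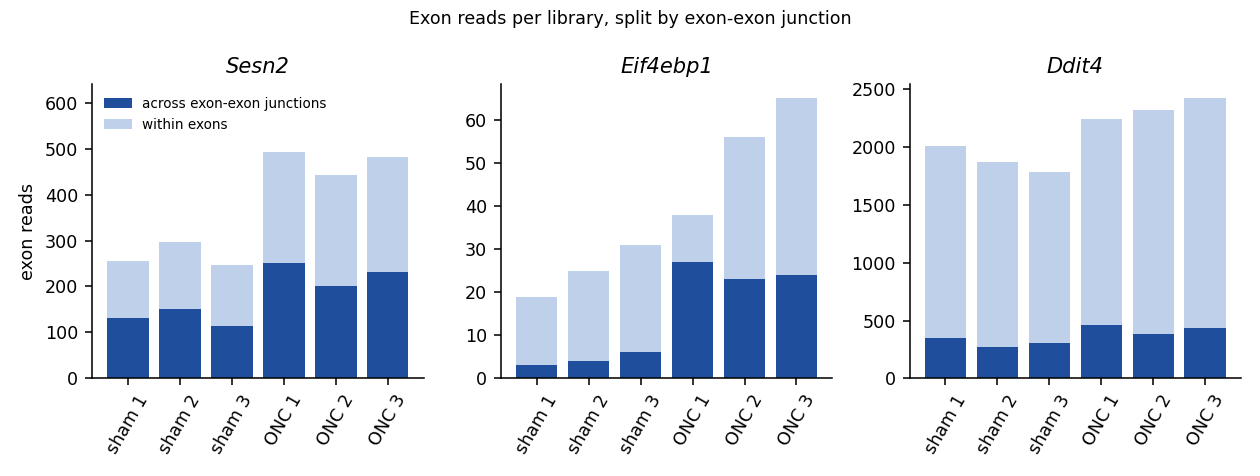
Exon reads of Sesn2, Eif4ebp1 and Ddit4 in each library (vertical axes from 0, each panel on its own scale), split into reads across exon-exon junctions (dark) and reads within exons (light). The dark part of Eif4ebp1 is 3 to 6 reads in sham and 23 to 27 reads in ONC, and both parts of Sesn2 are larger in ONC.

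Among the 4E-BPs, Eif4ebp1 was the least abundant per length. Eif4ebp2, the form known as the main one in brain, had 12.3 ± 0.510 RPKM in sham and 12.0 ± 1.24 RPKM in ONC, with a log2 fold change of -0.15 (edgeR adjusted p = 0.522). Eif4ebp3 had 3.94 ± 0.436 RPKM in sham and 4.48 ± 1.41 RPKM in ONC, with a log2 fold change of 0.06 (edgeR adjusted p = 0.925). Neither passed. The share of Eif4ebp1 was 6.19% ± 1.48 in sham and 11.4% ± 2.83 in ONC (SD, n = 3), without overlap (exact permutation test, p = 0.1, adjusted 0.25).

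Across the 9 genes, the order of levels per length in sham was Ddit4 and Rheb, Tsc2 and Mtor, Tsc1, Rps6kb1, Sesn2, Deptor and Eif4ebp1. In sham the pools of Ddit4 overlapped those of Rheb and the pools of Tsc2 overlapped those of Mtor, and every other step was free of overlap. In ONC, Sesn2 moved up to the level of Rps6kb1 and Eif4ebp1 to that of Deptor, and the pools of each of these pairs overlapped. Ddit4 stood at the 92.8 percentile of tested genes by mean RPKM in sham and Rheb at the 92.3 percentile, while Eif4ebp1 went from the 14.9 percentile in sham to the 22.6 percentile in ONC and Sesn2 from 36.4 to 47.3. In RPKM, 5 of the 9 genes (Tsc2, Rheb, Ddit4, Sesn2 and Eif4ebp1) had all ONC pools above all sham pools, as did 25.4% of all tested genes. After TMM scaling this held for 3 (Rheb, Sesn2 and Eif4ebp1), against 11% of all tested genes. The median log2 fold change of the 9 genes was 0.09, beside 0.01 over all genes.

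**Figure D4:**
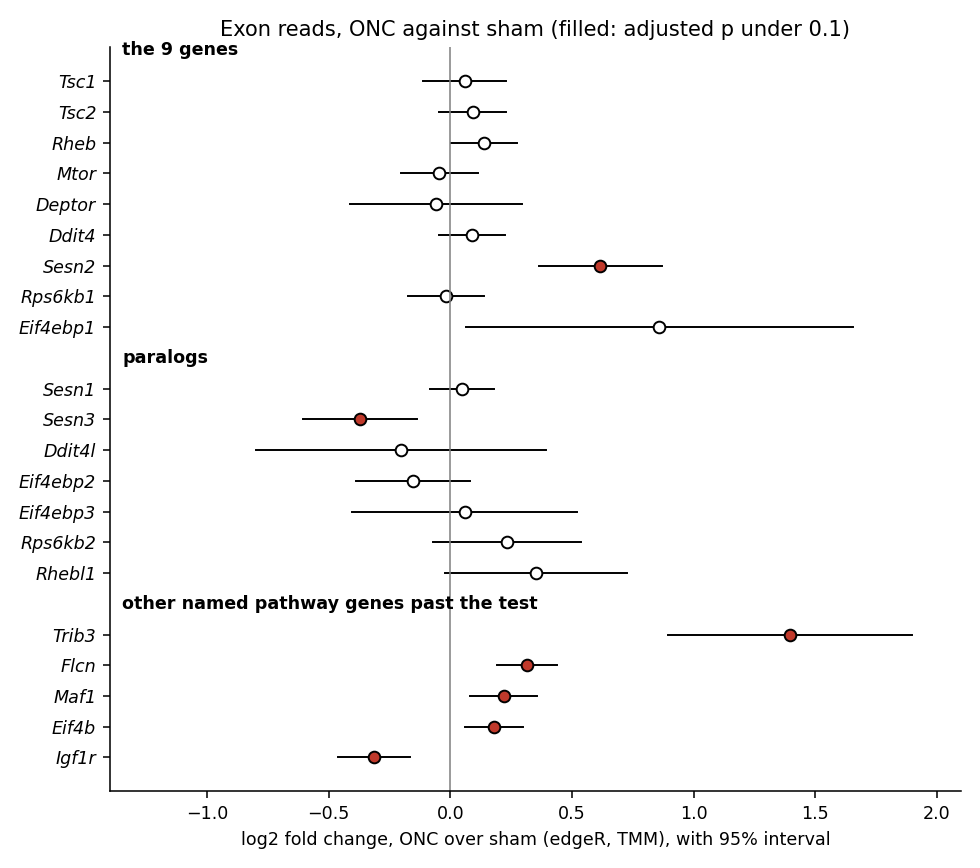
Log2 fold changes of exon reads in ONC over sham (horizontal axis, edgeR after TMM) with 95% intervals for the 9 genes, their paralogs and the other named pathway genes that passed, with filled points for an adjusted p under 0.1. Sesn2 is the only filled point among the 9 genes, at 0.62, and Eif4ebp1 has the widest interval among them, from 0.06 to 1.65.

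Intron reads were tested apart, as a readout that the exon counts do not hold. Ddit4 had 0 to 8 and Eif4ebp1 0 to 4 intron reads per sample, too few to test. In edgeR 0 of the other 7 genes passed, and 2.7% of all genes tested on introns passed. An unadjusted p under 0.05 was reached by 1 of the 7, and by 2304 of the 13391 genes tested on introns. Sesn2 had 34, 30 and 59 intron reads in sham and 29, 47 and 52 in ONC, with a log2 fold change of 0.08 (edgeR adjusted p = 0.935), and the groups overlapped. Deptor was the gene at an unadjusted p under 0.05, with 91, 98 and 139 intron reads in sham and 64, 51 and 75 in ONC. Its intron log2 fold change was -0.74 (SE 0.26, edgeR adjusted p = 0.169).

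The rest of the pathway was described with 6 lists of 94 genes in all, including the 9. Of the 94, 5 rose and 3 fell, or 8.51% against the 6.09% of all genes. Without ONC replicate 1 the number that passed was 20, and without any other sample it was 3 to 5. In edgeR 0 of 12 core genes of the mTOR complexes passed (median log2 fold change -0.06, 2 at an unadjusted p under 0.05, 0 by DESeq2 and 0 by limma), and Mtor was no exception. In edgeR 0 of 5 genes of the TSC complex and Rheb passed (median 0.09, 1 at an unadjusted p under 0.05, 0 by DESeq2 and 2 by limma).

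Among 18 genes of growth factor and PI3K-AKT input, 0 rose and 2 fell (median -0.04). Of the 18, 4 were at an unadjusted p under 0.05 in edgeR, 2 passed by DESeq2 and 0 by limma. Igf1r, the receptor for insulin-like growth factor, had 13.5, 14.5 and 13.4 RPKM in sham and 13.3, 11.4 and 11.6 RPKM in ONC, and it fell by 0.31 on the log2 scale (SE 0.07, edgeR adjusted p = 0.0136). ONC replicate 1 was the ONC pool closest to sham. The call of Igf1r was lost in 5 of 18 alternatives, 2 of them the fits without sham replicate 2 or 3. The others used the RPKM divisor. They were edgeR with the scaling of RPKM (adjusted p = 0.115) and limma with both pseudocounts (adjusted p = 0.228 in each). Akt1, the gene of highest mean RPKM over both groups in the list, had a log2 fold change of 0.05 (edgeR adjusted p = 0.775).

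Among 25 genes of amino acid sensing at the lysosome, the branch on which sestrins act, 1 rose and 0 fell (median 0.08). Of the 25, 4 were at an unadjusted p under 0.05 in edgeR, 1 passed by DESeq2 and 4 by limma. Flcn, which encodes folliculin, a regulator of the Rag GTPases, had 40.3, 41.0 and 35.2 RPKM in sham and 49.3, 54.5 and 53.7 RPKM in ONC. Every ONC pool lay above every sham pool, and the rise of 0.32 on the log2 scale (SE 0.06, edgeR adjusted p = 0.00311) passed in 18 of 18 alternatives. Rraga, a Rag GTPase and the gene of highest mean RPKM over both groups in the list, had a log2 fold change of 0.08 (edgeR adjusted p = 0.565).

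Among 14 stress and energy inhibitors, 2 rose (Sesn2 and Trib3) and 1 fell (Sesn3), with a median of 0.05. Of the 14, 4 were at an unadjusted p under 0.05 in edgeR, 3 passed by DESeq2 and 3 by limma. Trib3, a pseudokinase induced under endoplasmic reticulum stress and amino acid lack that binds AKT, had 1.70, 0.957 and 2.21 RPKM in sham and 5.28, 4.51 and 4.27 RPKM in ONC. It rose by 1.40 on the log2 scale (SE 0.24, edgeR adjusted p = 0.00122), without overlap, and passed in 18 of 18 alternatives. Hif1a, the most abundant gene of the list, had a log2 fold change of 0.03 (edgeR adjusted p = 0.818).

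Among 20 outputs on translation, autophagy and lipid synthesis, 2 rose and 0 fell (median 0.00). Of the 20, 5 were at an unadjusted p under 0.05 in edgeR, 2 passed by DESeq2 and 3 by limma. Maf1, a repressor of RNA polymerase III, rose by 0.22 on the log2 scale (SE 0.07, edgeR adjusted p = 0.0716), from 33.8 ± 2.69 to 42.8 ± 0.350 RPKM (SD, n = 3). Eif4b, a helper of the eIF4A helicase, rose by 0.18 on the log2 scale (SE 0.06, edgeR adjusted p = 0.0953), from 54.8 ± 1.08 to 67.5 ± 1.67 RPKM (SD, n = 3). The call of Maf1 was lost in 7 of 18 alternatives and that of Eif4b in 9. For both these included every fit with a sample left out except that without ONC replicate 1, and the replicate block (edgeR adjusted p = 0.116 and 0.182). Eef2, the most abundant gene of the list, had a log2 fold change of 0.01 (edgeR adjusted p = 0.957).

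**Figure D5:**
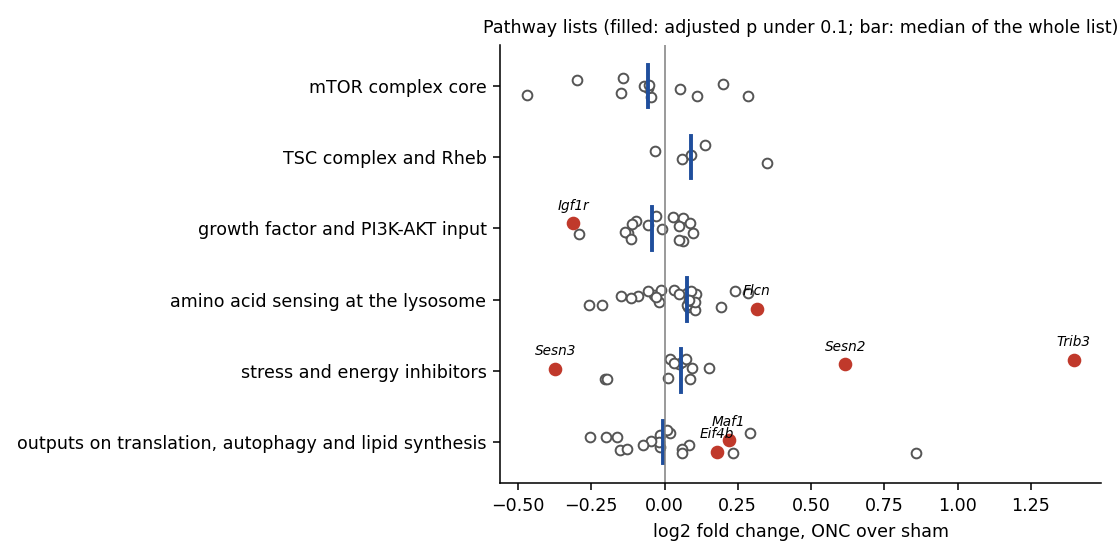
Log2 fold changes of ONC over sham (horizontal axis) for the reported genes of the 6 pathway lists (rows), with filled points for an adjusted p under 0.1 and a vertical bar for the median of each whole list. The medians lie between -0.06 and 0.09, and the filled points farthest to the right are Sesn2 and Trib3 among the stress and energy inhibitors.

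The genes whose pattern over the 6 samples was most like that of Sesn2, by Pearson's r of log2 TMM-scaled counts, were Spire2 (r = 0.995), Slc3a2 (r = 0.994) and Clcn3 (r = 0.992). Spire2 encodes an actin nucleator, Slc3a2 the heavy chain of amino acid transporters and Clcn3 a chloride-proton exchanger. Slc3a2 had 27.5, 28.4 and 25.6 RPKM in sham and 36.1, 35.8 and 36.2 RPKM in ONC, without overlap between the groups. Its log2 fold change was 0.29 (edgeR adjusted p = 0.00845), and it passed in 18 of 18 alternatives. Clcn3 was at 0.21 (edgeR adjusted p = 0.0331) and passed in 13 of 18. Spire2 was at 0.18 and did not pass (edgeR adjusted p = 0.398), nor in any of the 18 alternatives. All 3 rises were smaller than the 0.62 of Sesn2. The 6 points fall into the 2 groups, so r largely measures the step between them, and 16 genes had r above 0.98. With log2 RPKM in place of scaled counts, 0 of these 3 genes were among the 3 most alike.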

How the data were processed

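The authors mapped paired-end reads from retina in CLC Genomics Workbench 6.0.1 (up to 2 mismatches, mm9 named as the build) and deposited, for each sample, raw counts of reads per gene on exons, whole genes and exon-exon junctions. The authors also deposited RPKM, divided by all reads on genes. Gene positions in the files match GRCm38 rather than mm9 (5 of the 9 genes at the exact RefSeq GRCm38.p6 position). Groups and replicate numbers came from the labels.

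Exon counts were compared with edgeR 4.0.16 (TMM, glmQLFit, glmQLFTest, condition only) in R 4.3.3, over genes whose mean RPKM exceeded 0.3 in either group, with Benjamini-Hochberg adjustment over all of them. The study's test per gene used RPKM, and a count test took its place because counts are deposited. The SE is the log2 fold change divided by the root of the F statistic. Intron reads are gene reads minus exon reads (filterByExpr, 13391 genes). Paralog shares were compared by two-sided exact permutation tests. Alternatives were DESeq2 1.42.0, limma 3.58.1 on log2 RPKM with pseudocounts of 0.1 and 1, other scalings, filters and read classes, the replicate block and leaving out each sample. On simulated data with 13670 genes, edgeR recovered 80 of 100 genes changed 1.5-fold and 100 of 100 changed 3-fold, with 17 unchanged genes called. Whether these numbers hold at the spread between the sequenced pools was not tested.

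Genes named are the 9, their paralogs, from each list those that passed (at most 4) and the one of highest mean RPKM over both groups, and the 3 most like each DEG. The genes and lists were chosen with earlier results of these data known. Columns of pooled group means were not used. A gene of the lists that enters their counts is not reported here. Figures were drawn with matplotlib 3.10.9.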

Additional observations from a re-analysis of the deposited data

How the results depend on the processing

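Of the 9 genes, 1 passed under edgeR and 2 passed under the scaling of RPKM, 3 under limma with a pseudocount of 0.1, 3 with a pseudocount of 1 and 2 on junction reads. Leaving out each sample gave 1 to 2, the higher number without ONC replicate 1, where Eif4ebp1 passed too. There were 2 DEGs among the 9 under both limma settings and 0 on total gene reads, where Sesn2 fell under the fold limit. Of all 13670 genes tested, 282 were DEGs under limma with a pseudocount of 0.1 and 165 with a pseudocount of 1. Over all genes, limma passed 1121 with a pseudocount of 0.1 (978 higher in ONC, 143 lower). With a pseudocount of 1 it passed 1158 (1011 higher, 147 lower). In the edgeR fit 833 of all genes passed. This became 1730 under the scaling of RPKM, 380 on junction reads and 373 to 2049 when a sample was left out, with 373 without sham replicate 2, 397 without sham replicate 3, 435 without ONC replicate 2, 453 without ONC replicate 3 and 2049 without ONC replicate 1. The 227 DEGs became 350 under the scaling of RPKM, 342 on total gene reads and 154 to 358 when a sample was left out (358 without ONC replicate 1). In the pathway lists 8 genes passed, 5 on junction reads and 3 to 20 when a sample was left out (20 without ONC replicate 1, 3 without sham replicate 2, 5 without sham replicate 1 and 4 without each of the others). The cause of these changes was not tested. The junction reads were chosen after the data were seen.

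With the replicate number as a block, 728 genes passed, 1 of the 9 (Sesn2) and 5 of the pathway lists. Deviations of equally numbered sham and ONC samples had correlations of -0.0474, -0.0333 and 0.00261. Those of unequally numbered samples were -0.0307 to 0.0658. The values gave no sign that equal numbers mark pairs, but so few values cannot exclude it.

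Genes that did not pass changed sign as follows, with log2 fold changes given. Tsc1 was at -0.0211 on junction reads and -0.0329 to 0.1295 with a sample left out. Mtor was at 0.0767 under the scaling of RPKM, 0.0719 and 0.0677 under limma (pseudocounts of 0.1 and 1) and -0.150 to 0.00841 with a sample left out. Deptor was at 0.0596 under the scaling of RPKM, 0.0581 and 0.0402 under limma and -0.158 to 0.0294 with a sample left out. Rps6kb1 was at 0.103 under the scaling of RPKM, 0.00871 with the sum of exon reads, 0.106 and 0.0923 under limma, 0.0166 on junction reads and -0.0690 to 0.00958 with a sample left out. Eif4ebp3 was at -0.0581 on junction reads and -0.205 to 0.202 with a sample left out, and Eef2 at -0.00321 and -0.0537 to 0.0571. Ddit4l ranged from -0.403 to 0.0963 with a sample left out. On intron reads with the plain sum as library size, Rheb was at 0.0912, Mtor at 0.0876 and Rps6kb1 at 0.00461. With a sample left out, the intron values were -0.132 to 0.155 for Tsc1, -0.00271 to 0.531 for Tsc2, -0.207 to 0.0182 for Rheb and -0.101 to 0.377 for Sesn2. Of the 3 genes most like Sesn2, 0 were shared with those found on log2 RPKM. Eif4ebp1 had 19 to 65 exon reads per sample, the fewest of the 9 genes, and the part of counting error in its wide interval was not tested.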
